A study of Mus musculus with 20 samples.

Results

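Orphan and adhesion G protein-coupled receptors were taken as the genes whose array symbol was Gpr followed by a number, Gprc5a to Gprc5d, or Adgr followed by a letter and a number. They numbered 82 of the 18193 genes with a probe set of their own, and for each gene the brightest of its probe sets, by the mean of the 20 arrays, was read. Of the 82, 56 have numbered Gpr names, 4 belong to the Gprc5 family and 22 are adhesion receptors. The samples were male mouse cells of mixed C57BL/6;129 strain, derived from embryonic stem cells that carry a Blimp1-mVenus reporter, a stella-ECFP reporter and the doxycycline-dependent activator rtTA at Rosa26. The study asked which genes respond to each of Blimp1 (the protein of Prdm1), Prdm14 and Tfap2c, transcription factors used to turn such cells into primordial germ cell-like cells. The parental line (BVSCR26rtTA) has no further transgene. The Blimp1 line (B, clone 2-4) carries Avi-tagged Blimp1, the Prdm14 line (P14, clone 7-109) 3xFLAG-tagged Prdm14, the Tfap2c line (A, clone 8-2) V5-tagged Tfap2c, and the 3-factor line (BP14A, clone 3-3) all of these, each from a tetracycline-responsive promoter on a piggyBac vector with IRES-beta geo. Stem cells were kept in 2i and LIF, without feeders before induction. Each of the 5 lines was sampled as epiblast-like cells (EpiLCs), 36 h after leaving the stem cell state and before doxycycline, and as day 1 aggregates, begun with 2000 cells per well and kept 24 h in GK15 medium with 1.5 µg/ml doxycycline. There were 2 arrays in each of the 10 groups, which limits the precision. Every line is 1 clone, so a difference between lines may be one of clone or of factor, which cannot be told apart here, and all day 1 groups, the parental one included, had doxycycline.

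G protein-coupled receptors cross the cell membrane several times and pass signals from outside the cell to G proteins, whose alpha and beta-gamma subunits act on adenylyl cyclases and other effectors until receptor kinases, arrestins and RGS proteins end the signal. Many numbered Gpr genes are orphans, receptors that had no known ligand when they were named, and a few of them encode proteins that sit in the Golgi or lysosome rather than at the surface. Adhesion receptors have a long outer part that binds matrix or neighbouring cells and can be cut to expose a tethered activating peptide, and the Gprc5 receptors are a small family first known from genes induced by retinoic acid.

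Promoters are shown for receptors whose RNA differed from the parental line on day 1 in both the 3-factor and the Prdm14 lines, so that the letters can be read beside the values that follow. RefSeq (GRCm38.p6) gave a promoter for 62 of the 82 receptors and for 12 of the 17 that were called in at least 1 comparison, and the first listed was used. Gprc5a, which was also higher in both lines, had no promoter there and is not shown. Each line gives the 250 bases before the start of the gene, read 5′ to 3′ on the strand of the gene. Capitals mark the letters GTGAAAG, the core of the Prdm1 motif, on either strand. Adgrg6 (chr10:14545037-14545286, minus strand), Gpr50 (chrX:71663417-71663666, plus strand) and Gpr1 (chr1:63214282-63214531, minus strand) had higher RNA in these lines, and Gprc5b (chr7:118995212-118995461, minus strand) had lower RNA.
Adgrg6: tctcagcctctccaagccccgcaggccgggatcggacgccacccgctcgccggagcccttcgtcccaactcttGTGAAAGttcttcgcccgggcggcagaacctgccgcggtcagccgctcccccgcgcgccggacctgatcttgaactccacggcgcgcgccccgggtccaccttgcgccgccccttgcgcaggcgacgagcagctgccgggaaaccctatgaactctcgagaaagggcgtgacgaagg
Gpr50: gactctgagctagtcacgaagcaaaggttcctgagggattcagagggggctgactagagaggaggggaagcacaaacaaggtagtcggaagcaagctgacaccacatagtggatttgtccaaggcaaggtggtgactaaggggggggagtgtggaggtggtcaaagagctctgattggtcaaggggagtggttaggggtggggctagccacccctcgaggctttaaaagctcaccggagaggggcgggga
Gpr1: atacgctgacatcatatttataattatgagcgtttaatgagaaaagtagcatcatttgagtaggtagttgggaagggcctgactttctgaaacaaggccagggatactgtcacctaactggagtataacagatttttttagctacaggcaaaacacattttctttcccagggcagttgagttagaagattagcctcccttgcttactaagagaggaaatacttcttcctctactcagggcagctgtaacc
Gprc5b: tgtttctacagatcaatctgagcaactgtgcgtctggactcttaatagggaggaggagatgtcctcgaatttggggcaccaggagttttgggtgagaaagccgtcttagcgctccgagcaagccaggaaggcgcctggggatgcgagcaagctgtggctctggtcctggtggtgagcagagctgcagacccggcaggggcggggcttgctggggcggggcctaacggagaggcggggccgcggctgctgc

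The Adgrg6 window holds 1 match to GTGAAAG, and the other windows printed hold none. The 3 motifs were searched on both strands, and none of them contains another. The Prdm1 core GTGAAAG was in 4 of the 62 receptor promoters (6.45%) and in 461 of the 14368 promoters of array genes (3.21%). These 4 were Adgrg6, Adgrg3, Gpr18, which was never called, and Gpr174, which was not tested. The Prdm14 core GTCTCTA was in 3 (4.84%) and 365 (2.54%). The TFAP2 family motif GCCNNNGGC, which reads the same on both strands, was in 9 (14.5%) and 2633 (18.3%). With so few receptor promoters these shares are imprecise. Matches of such short motifs are a description of the letters, and binding was not measured.

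Values are the deposited ones on a log2 scale, so a change of 1 is a doubling. The series as a whole behaved in several ways that touch the results. Array medians lay between 4.60 and 4.86. Prdm1 and Tfap2c RNA was above the parental day 1 level in the 3-factor, Blimp1 and Prdm14 lines, but Tfap2c averaged 5.94 on day 1 in the Tfap2c line against 6.34 in the parental line. Prdm14 lay between 3.50 and 4.04 in every day 1 group, and which of these probe sets can read the transgenes is not known here. Among 5 EpiLC markers, Pou3f1 averaged 6.80 on day 1 in the 3-factor line and 8.37 in the Prdm14 line against 11.68 in the parental line, and Dnmt3b behaved likewise at 9.87 and 11.14 against 13.21. Otx2 averaged 8.93 and 10.07 against 10.68 and Fgf5 9.66 and 10.21 against 10.59, while Pou5f1 stood at 12.50 in both lines against 12.49. All 5 EpiLC markers were above the filter level in all groups. Of 5 early germ cell markers 4 could be read. Their summed linear value on day 1 was 2817 to 6573 in these lines against 279.3 to 295.8 in the parental line. The Blimp1 line shifted too, with a germ cell sum of 1189 to 1724 on day 1. Its Otx2 averaged 9.18, Fgf5 9.61, Pou3f1 11.07, Dnmt3b 12.98 and Pou5f1 12.16. Summed markers of macrophages, endoderm, endothelium and neural cells differed by less than a factor of 2 between these day 1 groups, no listed marker had a group mean of 0, and fibroblast markers were lower in the 3-factor line, at 158.2 to 162.3 against 347.6 to 360.5. That sum was carried by Dcn (6.18 against 7.24) and Thy1 (4.03 against 7.07), while Col1a2 (5.62 against 5.42) and Lum (3.77 against 3.35) went the other way. Single markers moved further than the other sums. Of the neural ones, Tubb3 was higher in the 3-factor and Prdm14 lines (8.48 and 8.88 against 8.11). Sox1 (1.54 and 3.03 against 5.56), Pax6 and Dcx were lower in both, and Neurod1 was lower in the 3-factor line only (4.90 against 6.38). Of the endoderm markers only Foxa2 was lower in both (3.40 and 3.06 against 4.56). Of the endothelial ones, Pecam1 (5.28 and 5.12 against 3.70), Tek (5.74 and 5.61 against 4.63), Kdr and Esam were higher in both. Cdh5 was higher in the 3-factor line only. Of the macrophage ones, Tyrobp (2.04 and 0.33 against 3.25, below the filter level) and Fcer1g were lower in both. Ptprc, Csf1r, Cd68 and Laptm5 were higher in both. The part of these shifts in the receptor results was not tested, and with whole aggregates fewer cells of a type and less RNA per cell cannot be told apart. The Y-linked gene Uty averaged 2.40 to 2.62 in the Blimp1 line and 4.36 to 4.43 in the Prdm14 line against 8.11 to 8.57 in the others, although all lines are labelled male. Another Y-linked gene, Eif2s3y, was below the parental line in all 4 transgenic lines. As EpiLCs and on day 1 it averaged 9.48 and 9.27 in the parental line, 7.90 and 7.26 in the Tfap2c line, and 7.26 and 6.50 in the 3-factor line. It averaged 4.61 and 2.28 in the Prdm14 line and 1.68 and 0.98 in the Blimp1 line.

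The receptors were weakly expressed as a set. A gene was tested when its highest group mean reached 3.95, the 40th percentile of all values. This held for 52 of the 82 receptors (63.4%) against 13986 of 18193 genes (76.9%). By family, 16 of 22 adhesion receptors, 3 of 4 Gprc5 receptors and 33 of 56 numbered Gpr genes were tested. The 30 that were not had highest group means from 1.90 for Gpr176 to 3.89 for Adgrl3, with Gpr61 at 3.86 and Gpr12 at 3.82 next below. Gpr20 at 3.96, Gpr158 at 3.97 and Gpr63 at 3.98 lay just inside. Gprc5d, the remaining Gprc5 gene, reached 3.29 in its highest group. The untested adhesion receptors were Adgrl3, Adgre1, Adgrg2, Adgrb3, Adgrf1 and Adgrd1. Among tested genes the median of the overall mean was 4.23 for the receptors and 7.10 for all genes. The median standard error (SE) by limma of a difference between 2 groups was 0.331 against 0.131. Small changes of receptors were therefore measured less precisely than those of a typical gene.

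Among the 10 brightest tested receptors the group means of all but Gprc5b spanned 0.34 (Gpr180) to 1.22 (Adgrl1), where the median span of all tested genes was 0.685. Adgrl1, Gpr85, Gpr19 and Adgrl2 lay above that median, and the other 5 below it. Adgra3, an adhesion receptor once named Gpr125, lay between 9.10 and 9.72 on all arrays. Adgrl2, a latrophilin that binds teneurins and Flrt proteins, lay between 8.11 and 9.23, and Adgrl1, another latrophilin, between 7.04 and 8.46. Gpr19, an orphan, lay between 7.79 and 8.82. The others were Gpr180, Gpr89 (a Golgi pH regulator), Gpr107 and Gpr108 (proteins of the Golgi), Gpr85 (an orphan of brain) and Gprc5b, the only one of them with a change of more than 4 in any comparison.

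A call needed a Benjamini-Hochberg adjusted p under 0.05 by limma over all 13986 genes and a log2 change of at least 1 in size. Over 20 comparisons, 17 of the 52 tested receptors were called at least once and 35 never, where 21.4% of all genes were called at least once. Calls fell in 10 receptors between a transgenic line and the parental line on day 1 (9.09% of all genes), in 15 between stages (18% of all genes), and in 0 between lines as EpiLCs (0.122% of all genes). Without Gprc5a and Adgrg6, which were singled out in choosing the genes, these counts were 15, 8, 13 and 0 of 50. The plot of log2 changes of the 17 receptors shows this: the EpiLC columns and the Tfap2c day 1 column hold no called cell, and all calls lie in the other day 1 and stage columns.

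**Figure D1:**
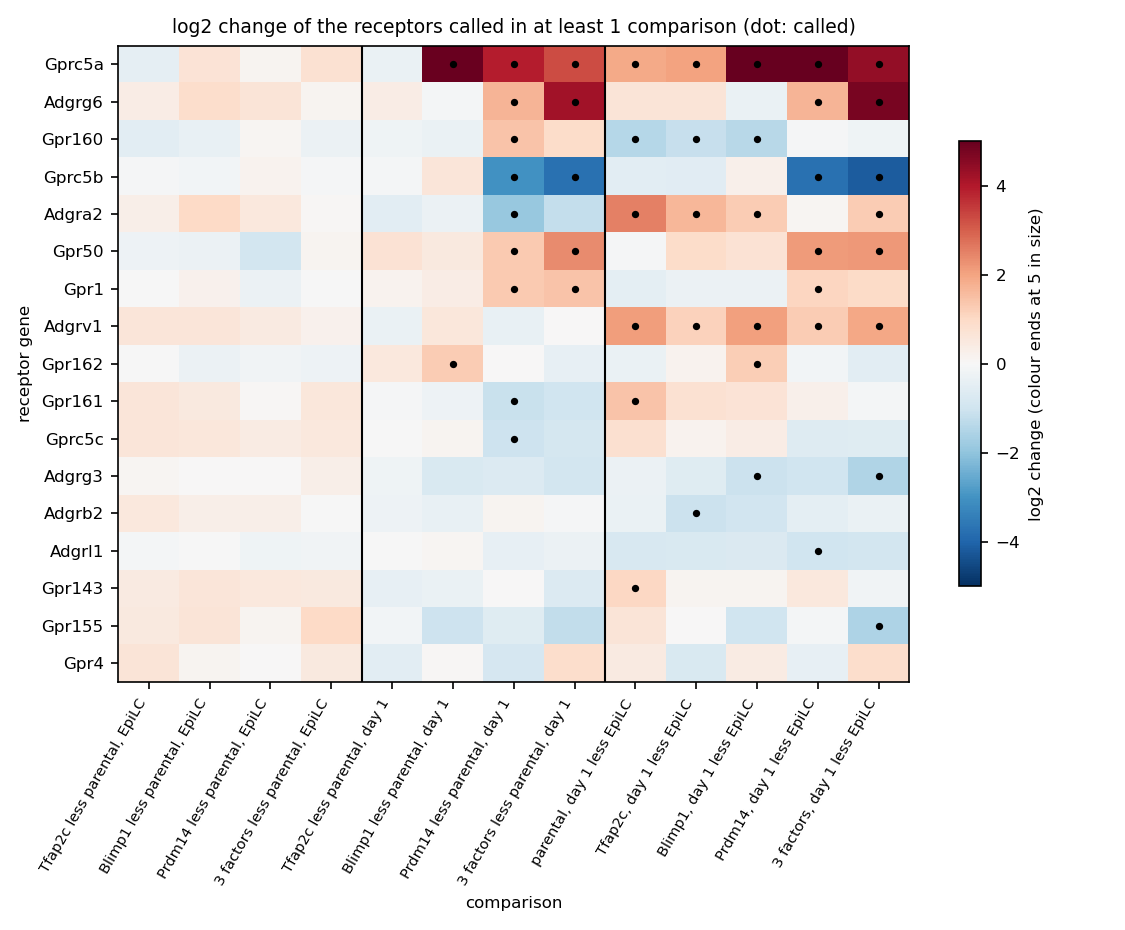
Log2 change of the 17 receptors called in at least 1 comparison (rows) in 13 comparisons (columns: each line less parental as EpiLCs, each line less parental on day 1, and day 1 less EpiLC in each line). Red is higher, blue is lower, colours end at 5 in size, and a dot marks a call. Gprc5a and Adgrg6 were singled out in choosing the genes, so their dots in line comparisons are a description. Gprc5b is deep blue where day 1 of the Prdm14 and 3-factor lines is compared, at −3.02 and −3.72 from parental.

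Before doxycycline the lines were compared with the parental EpiLCs to see whether clones already differed. By limma 0 of 52 receptors were called in each line, with 4, 6, 3 and 3 at an unadjusted p under 0.05 in the 3-factor, Blimp1, Prdm14 and Tfap2c lines. The treat test against a change of 0.5 also called 0. Of all genes 0.0143%, 0.0787%, 0.0358% and 0.0286% were called in these lines. These 4 comparisons share the parental arrays. Gpr153, an orphan, read 5.20 and 3.86 in the parental EpiLCs and 4.99 to 5.65 in the other EpiLCs. Leaving out the higher parental array made it a call in all 4 comparisons, so this rests on the lower array of the pair.

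Gprc5a, the retinoic acid-induced receptor of the family, and Adgrg6, an adhesion receptor that binds collagen IV and laminin and is needed for myelination by Schwann cells, were singled out as responsive to the factors when the genes were chosen, and their line differences are described without a test. Gprc5a read 3.74 and 3.93 on day 1 in the parental line and 3.20 and 3.80 in the Tfap2c line. It read 8.72 and 8.87 in the Blimp1 line, 7.77 and 7.76 in the Prdm14 line, and 7.20 and 6.99 in the 3-factor line. The 3 lines with Blimp1 or Prdm14 lay above both others with no overlap, and the 3-factor line was the lowest of the 3. As EpiLCs all lines lay between 1.07 and 3.51. These values and the parental and Tfap2c day 1 values are below the filter level, so sizes of change from them are measured from near background. The Blimp1 line stood 4.96 ± 0.60 (SE) above parental on day 1, the Prdm14 line 3.93 ± 0.60 and the 3-factor line 3.26 ± 0.60, and the Tfap2c line differed from parental by −0.34. Between the transgenic lines, 3-factor less Blimp1 was −1.70, Prdm14 less Blimp1 −1.03 and 3-factor less Prdm14 −0.67. In the parental line itself Gprc5a rose by 1.90 ± 0.60 between stages (adjusted p = 0.0287), a call that was lost when any of its 4 arrays was left out.

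Adgrg6 followed another pattern. On day 1 it read 2.34 and 2.92 in the parental line, 3.10 and 2.88 in the Tfap2c line, and 2.16 and 2.92 in the Blimp1 line. It read 4.40 and 4.23 in the Prdm14 line and 6.59 and 7.10 in the 3-factor line. The Prdm14 and 3-factor lines lay above all others and did not overlap each other, and the Blimp1 line overlapped the parental line. The 3-factor line stood 4.22 ± 0.39 and the Prdm14 line 1.69 ± 0.39 above parental, and the Blimp1 line differed by −0.09 ± 0.39. A second probe set gave 3.13 ± 0.55 in the 3-factor line and 1.41 ± 0.55 in the Prdm14 line. All parental, Tfap2c and Blimp1 values, and all EpiLC values (1.61 to 2.94), were under 3.95, so these sizes are measured from near background.

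By a rule of likeness over the 10 group means, the tested genes most like Gprc5a were Cdon (Pearson r = 0.979), Nt5c3 (0.978), Notch2, Csrnp3 and Btg1 (0.975 each). Those most like Adgrg6 were Zfp862-ps (0.980), Zbtb45 (0.972), Tesk2 (0.970), Pttg1ip and Etnk1 (0.964 each). These are descriptions over 10 points from the same 20 arrays.

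On day 1 the receptors were compared between each transgenic line and the parental line, whose 2 arrays all 4 comparisons share. In the 3-factor line 4 of 52 receptors were higher and 1 lower, where 2.75% of all genes were higher and 3.85% lower (6.6% in all). Without Gprc5a and Adgrg6 this was 3 of 50. In the Prdm14 line 5 were higher and 4 lower, against 2.17% and 3.19% (5.36% in all), or 7 of 50 without that pair. In the Blimp1 line 2 were higher and 0 lower, against 1.39% and 1.19% (2.59% in all), or 1 of 50. Centring arrays on their medians turned the split of all genes in the Blimp1 line from 195 higher and 167 lower to 150 and 201, and reversed no called receptor. In the Tfap2c line limma called 0 receptors, with 2 at an unadjusted p under 0.05 (Gpr26 and Gpr50), and of all genes 0% were higher and 0.0286% lower (0.0286% in all). The median change of the 52 receptors was −0.16, 0.06, −0.12 and −0.02 in the 3-factor, Blimp1, Prdm14 and Tfap2c lines, against −0.01, 0.03, −0.04 and −0.03 for all genes.

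**Figure D2:**
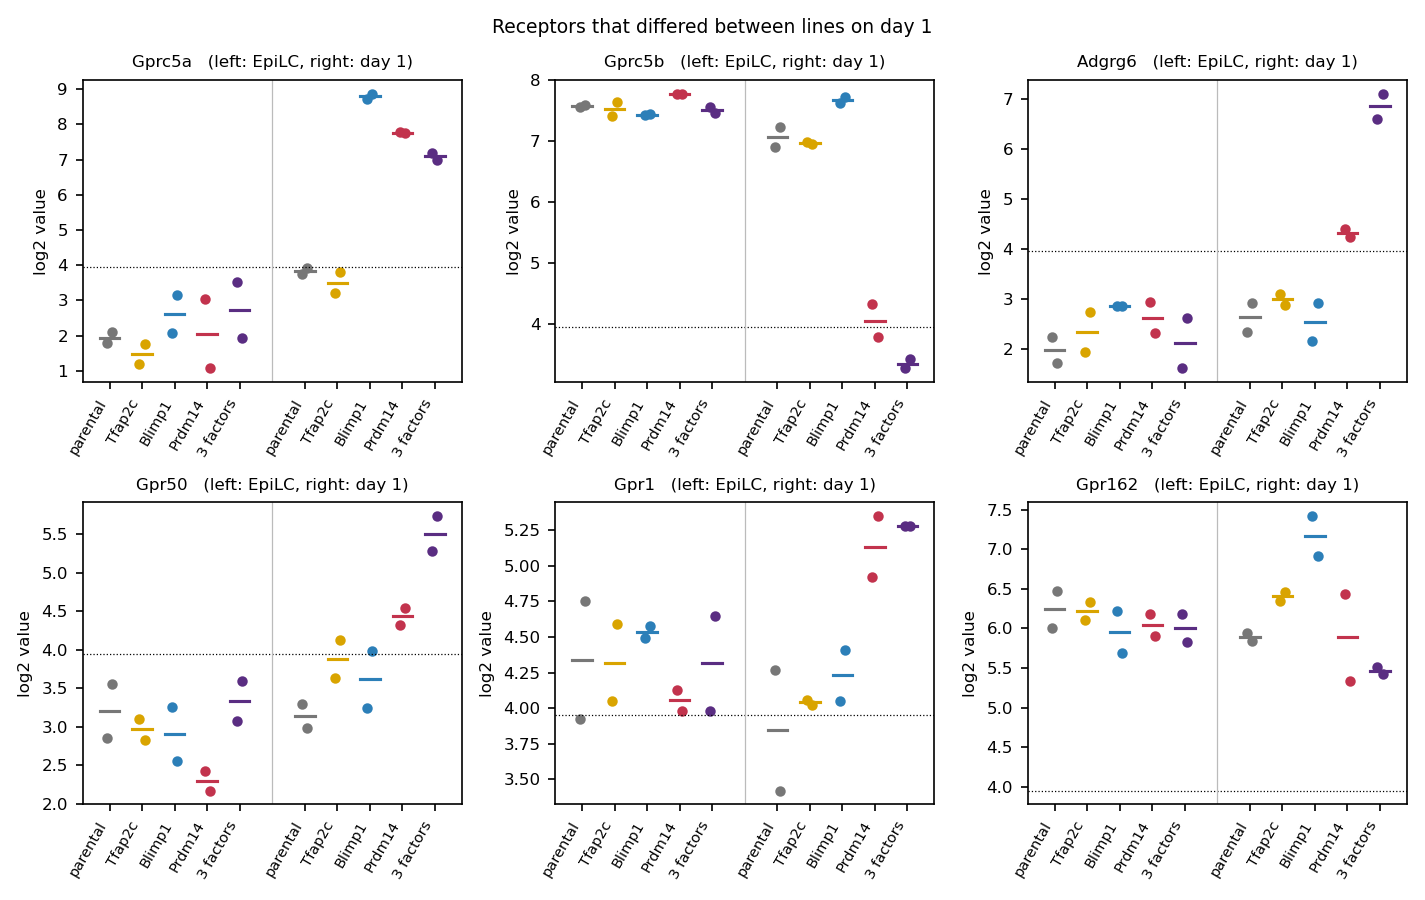
Log2 values of 6 receptors on each array (points) with group means (bars), EpiLCs on the left and day 1 on the right of each panel, by line; the dotted line is the filter level of 3.95. Gprc5a is high in 3 day 1 groups, Gprc5b is low in 2, and Adgrg6, Gpr50 and Gpr1 are highest in the 3-factor and Prdm14 day 1 groups.

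Gprc5b, an orphan of the same family that is abundant in brain, was the receptor with the strongest loss. Its day 1 values were 6.90 and 7.24 in the parental line, 6.99 and 6.95 in the Tfap2c line and 7.63 and 7.72 in the Blimp1 line. They were 4.32 and 3.78 in the Prdm14 line and 3.27 and 3.43 in the 3-factor line. As EpiLCs all lines read 7.41 to 7.78, so the low groups appeared only on day 1 and did not overlap any other group. Gprc5b fell by 3.72 ± 0.15 in the 3-factor line (adjusted p = 5.92e-09) and by 3.02 ± 0.15 in the Prdm14 line (adjusted p = 5.87e-08). In the Blimp1 line the change was 0.61 ± 0.15, in the other direction and too small for a call (adjusted p = 0.0175). Its second probe set gave −2.09, −2.35 and 0.59 in these lines. The direct comparison of the 3-factor with the Prdm14 line was −0.70 ± 0.15 (adjusted p = 0.0172), also below the size for a call. The second probe set averaged 3.305 in the 3-factor line and 3.05 in the Prdm14 line, in the other direction. That difference between the 2 lines is therefore seen by the brighter probe set only. In the brighter one, both 3-factor arrays and 1 Prdm14 array lay under 3.95. The sizes of these falls and of the difference between the lines are therefore measured against near background.

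Gprc5c, the third tested gene of the family, was weakly expressed, with day 1 values of 4.58 and 4.62 in the parental line, 3.17 and 3.96 in the Prdm14 line, and 3.66 and 3.80 in the 3-factor line. Both transgenic groups lay below the parental arrays. It fell by 1.03 ± 0.30 in the Prdm14 line (adjusted p = 0.0239), a call lost without either parental array or without the lower Prdm14 array. The change in the 3-factor line was −0.87 ± 0.30 (adjusted p = 0.0473). A second probe set of Gprc5c showed more, with −2.51 ± 0.37 in the Prdm14 line, −2.32 ± 0.37 in the 3-factor line and 1.84 ± 0.37 in the Blimp1 line, each called when every probe set was fitted on its own. Gprc5b and Gprc5c were thus low in the 3-factor and Prdm14 lines, where Gprc5a was high.

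Gpr50, an X-linked orphan related to the melatonin receptors, read 3.30 and 2.98 on day 1 in the parental line, 4.32 and 4.55 in the Prdm14 line, and 5.28 and 5.74 in the 3-factor line. The 3 groups did not overlap. Only these day 1 means of the 3-factor and Prdm14 lines reached the filter level, so it was among the tested genes because these groups were high, and its differences were read from the limma fit with no filter. It rose by 2.37 ± 0.34 in the 3-factor line (adjusted p = 0.000373), a call made in the 11 alternative runs that held the gene. In the Prdm14 line it rose by 1.29 ± 0.34 (adjusted p = 0.0225). With the filter, that call was lost without the higher Prdm14 array or without the lower parental array. All other groups averaged 2.30 to 3.88, so the sizes are measured from near background, and a second Gpr50 probe set read near 0 in every group.

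Gpr1, a receptor that binds chemerin, read 4.27 and 3.42 on day 1 in the parental line, 4.92 and 5.35 in the Prdm14 line, and 5.28 and 5.28 in the 3-factor line. Both lines lay above the parental arrays, which differed widely from each other. It rose by 1.44 ± 0.33 in the 3-factor line (adjusted p = 0.00581) and by 1.29 ± 0.33 in the Prdm14 line (adjusted p = 0.0127). Both calls were lost without the lower parental array, and that in the Prdm14 line also without its higher array.

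Gpr160, an orphan, stayed near its EpiLC level in the Prdm14 line and fell in the parental line. In the parental line it read 5.68 and 5.89 as EpiLCs and 4.48 and 4.22 on day 1. In the Prdm14 line it read 5.82 and 5.92, then 5.72 and 5.87. In the 3-factor line it read 5.65 and 5.33, then 5.44 and 5.11. Day 1 values of these lines lay above all parental, Tfap2c and Blimp1 values, which reached 4.48. Gpr160 was 1.45 ± 0.24 higher than parental in the Prdm14 line (adjusted p = 0.00088), in every alternative run. The difference in the 3-factor line was 0.93 ± 0.24 (adjusted p = 0.0129), below the size for a call.

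Gpr162, an orphan, was the called receptor of the Blimp1 line besides Gprc5a. Its day 1 values were 5.94 and 5.84 in the parental line, 7.42 and 6.92 in the Blimp1 line, 6.44 and 5.34 in the Prdm14 line, and 5.51 and 5.42 in the 3-factor line. The Blimp1 arrays lay above all others. It rose by 1.28 ± 0.31 (adjusted p = 0.0145), and the call was lost without either parental array or without the higher Blimp1 array.

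Adgra2, a co-receptor for Wnt7 in brain vessels with Reck, read 4.28 and 3.79 on day 1 in the parental line, 2.27 and 2.04 in the Prdm14 line, and 2.46 and 3.22 in the 3-factor line. The Prdm14 arrays were the lowest of the day 1 arrays. Only its parental day 1 mean, 4.04, reached the filter level, so its differences too were read from the fit with no filter. By limma it was lower by 1.88 ± 0.45 in the Prdm14 line (adjusted p = 0.0135), a size measured near background. With the filter, the call was lost without the higher parental or the lower Prdm14 array. Gpr161, a receptor of the primary cilium that restrains hedgehog signalling, read 5.67 and 5.90 in the parental line and 4.57 and 4.80 in the Prdm14 line, with no overlap. Its change in the Prdm14 line was −1.10 ± 0.19 (adjusted p = 0.00106), a call lost without 1 Prdm14 array or 1 parental array, and on averaging its probe sets. Its 2 probe sets moved in opposite directions between stages in the parental line, at 1.43 ± 0.19 and −0.83 ± 1.04, so Gpr161 is uncertain. The treat test against 0.5 also ended the calls given above for Gpr1, Gpr162, Adgra2, Gpr161 and Gprc5c, and that of Gpr50 in the Prdm14 line.

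**Figure D3:**
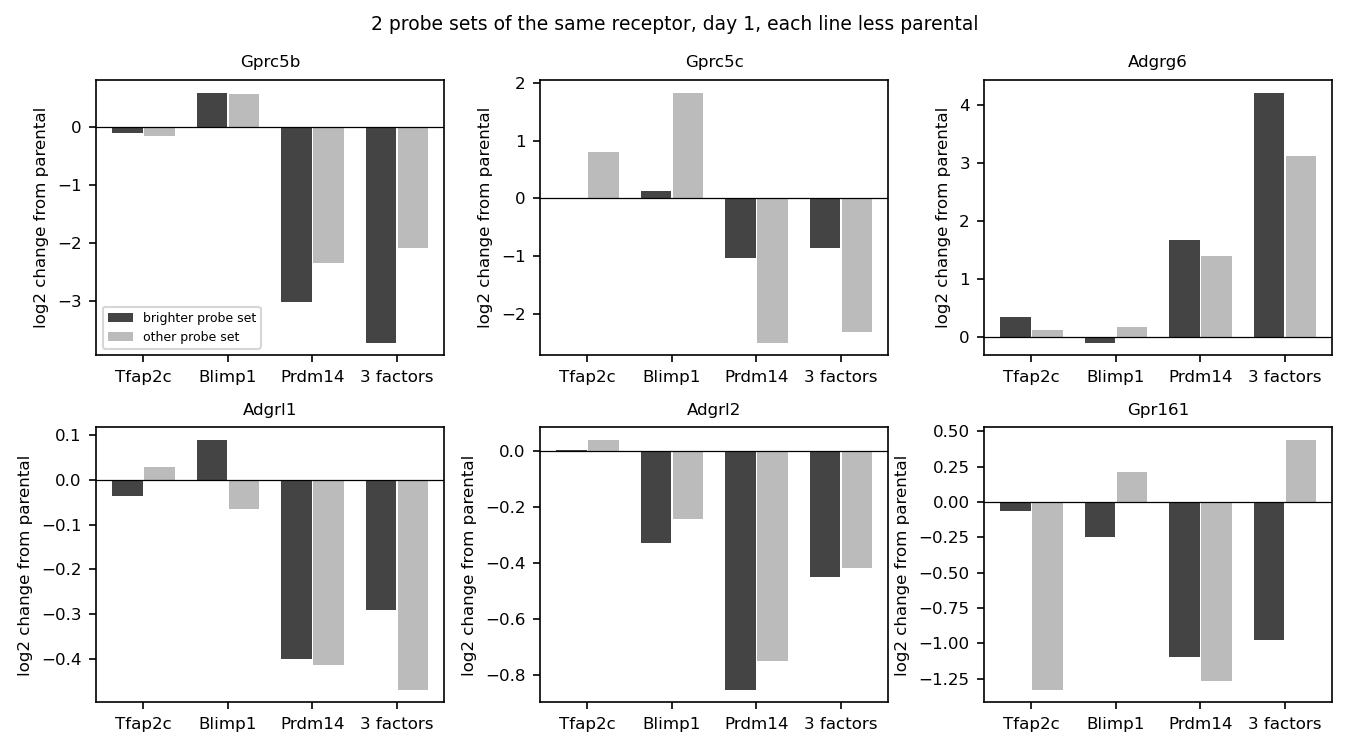
Log2 change from parental on day 1 in each line for the 2 tested probe sets of 6 receptors; black is the brighter probe set, on which the results rest, and grey the other. Axes differ between panels. The probe sets of Gprc5b, Adgrg6 and Adgrl2 moved alike, Gprc5c moved further in the grey one, and those of Gpr161 disagreed in the 3-factor line, at −0.98 and 0.44.

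Some receptors had small differences that passed the adjusted p and not the size for a call. Adgrl2 was −0.86 ± 0.12 in the Prdm14 line (adjusted p = 0.000288) and −0.45 ± 0.12 in the 3-factor line (adjusted p = 0.0168), and its second probe set gave −0.75 and −0.42. Gpr85 was −0.88 ± 0.13 in the 3-factor line (adjusted p = 0.000288) and −0.74 ± 0.13 in the Prdm14 line (adjusted p = 0.00128), but 2 other probe sets lay between −0.37 and −0.13, and one below the filter level averaged 1.96 and 2.31 against 1.59 in the parental line, in the other direction. Adgra3 was −0.47 ± 0.06 in the 3-factor line (adjusted p = 0.000137). Receptors of this kind numbered 8, 4, 3 and 0 of 52 in the 3-factor, Blimp1, Prdm14 and Tfap2c lines, where 20.9%, 14.7%, 18.6% and 0.0572% of all genes were of this kind.

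The transgenic lines were also compared with each other on day 1. Of the 52 receptors 6 were called between the 3-factor and Blimp1 lines and 6 between the Prdm14 and Blimp1 lines, where 6.46% and 6.49% of all genes were called. Without Gprc5a and Adgrg6 this was 5 of 50 in each. Of these, Gprc5b was 4.33 ± 0.15 lower in the 3-factor line (adjusted p = 2.57e-09) and 3.63 ± 0.15 lower in the Prdm14 line than in the Blimp1 line (adjusted p = 1.27e-08). Gpr160 was 1.28 ± 0.24 and 1.80 ± 0.24 higher (adjusted p = 0.00171 and 0.000137). Gpr162 was 1.71 ± 0.31 and 1.28 ± 0.31 lower (adjusted p = 0.00127 and 0.00795). The call of Gpr160 between the 3-factor and Blimp1 lines and that of Gpr162 between the Prdm14 and Blimp1 lines were lost without 1 array. Between the 3-factor and Prdm14 lines 1.04% of all genes were called. Adgrg6, described without a test, was 2.53 higher in the 3-factor line. Of the 50 receptors other than Gprc5a and Adgrg6, 1 was called, the proton-sensing receptor Gpr4. Gpr4 read 4.78 and 5.10 in the 3-factor line and 3.10 and 3.29 in the Prdm14 line, with no overlap (1.75 ± 0.39, adjusted p = 0.0187). That call was lost without any of the 4 arrays.

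Between stages, the parental line shows the change on aggregation in doxycycline without a transgene. In it 5 of 52 receptors were higher and 1 lower on day 1, where 3.95% of all genes were higher and 2.61% lower (6.56% in all), or 5 called of 50 without Gprc5a and Adgrg6. Adgra2 read 1.21 and 1.83 as EpiLCs and 4.28 and 3.79 on day 1 (2.52 ± 0.45, adjusted p = 0.00164 with no filter). Adgrv1, a very large adhesion receptor of hair cell stereocilia, read 2.14 and 3.03, then 4.79 and 4.56 (2.09 ± 0.35, adjusted p = 0.00107 with no filter). Neither gene overlapped between stages, and both started below the filter level. A second Adgrv1 probe set averaged 1.79 as EpiLCs and 1.73 on day 1 and did not show the rise. Gpr160 fell by 1.44 ± 0.24 (adjusted p = 0.000666). The remaining calls were Gprc5a, Gpr161 and Gpr143, a pigment cell receptor, at 1.03 ± 0.35 (adjusted p = 0.0392). That of Gpr143 was lost with no filter (adjusted p = 0.0586) and when any of 3 of its 4 arrays was left out.

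**Figure D4:**
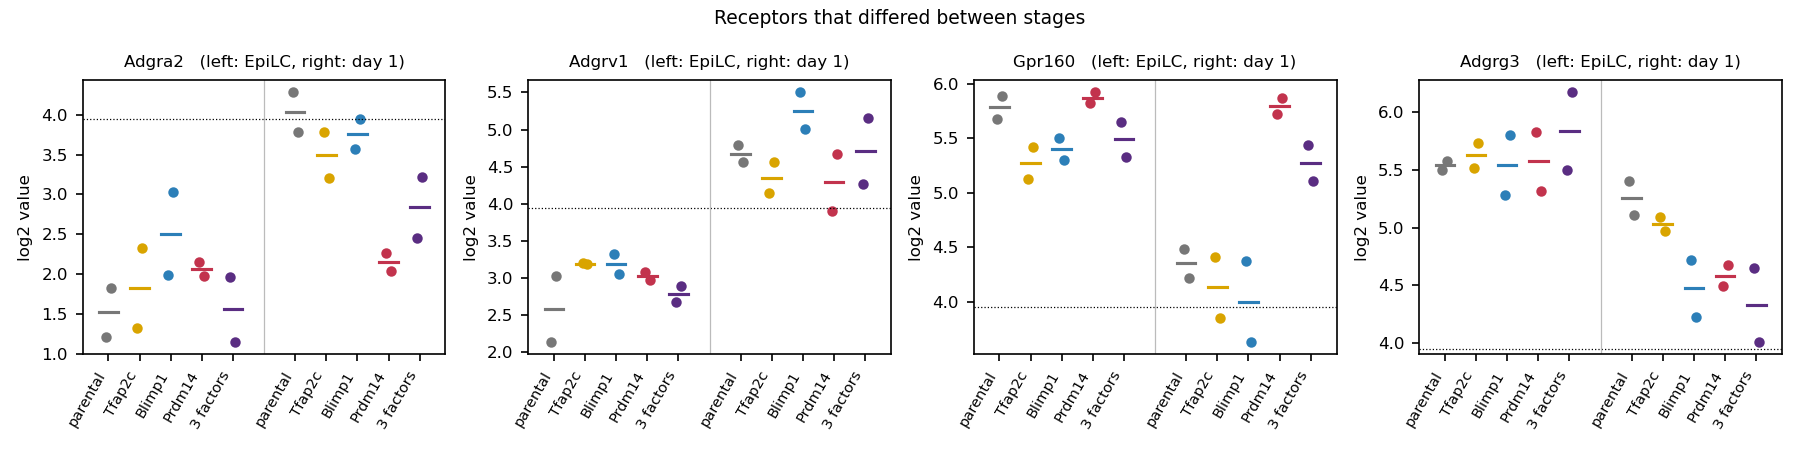
Log2 values of 4 receptors on each array (points) with group means (bars), EpiLCs on the left and day 1 on the right of each panel, by line; the dotted line is the filter level of 3.95. Adgra2 and Adgrv1 are higher on day 1 in the parental line, Gpr160 stays up on day 1 in the Prdm14 and 3-factor lines, and Adgrg3 is lower on day 1.

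The same stage comparison within each transgenic line gave 5 higher and 3 lower in the 3-factor line, against 5.68% and 4.86% of all genes (10.5% in all). In the Blimp1 line it gave 4 higher and 2 lower, against 5.72% and 3.93% (9.65% in all), and in the Prdm14 line 5 higher and 2 lower, against 4.25% and 3.71% (7.97% in all). In the Tfap2c line it gave 3 higher and 2 lower, against 3.55% and 2.52% (6.08% in all). Without Gprc5a and Adgrg6 the calls in these 4 lines were 6, 5, 5 and 4 of 50. Adgrv1 was called higher in all 5 lines, by 1.16 to 2.09, also with no filter (adjusted p = 0.000776 to 0.0337). Its group means reached the filter level only on day 1, so it was among the tested genes because that stage was high. Adgra2 was called in 4, by 1.25 to 2.52, but with no filter the calls in the 3-factor and Blimp1 lines were lost (adjusted p = 0.0519 and 0.0557), and it read 2.15 and 1.98 as EpiLCs and 2.27 and 2.04 on day 1 in the Prdm14 line. Gpr160 fell by 1.15 in the Tfap2c line and 1.40 in the Blimp1 line. Leaving out 1 array could end the calls of Adgrv1 in the Prdm14 and Tfap2c lines, of Adgra2 in the Tfap2c, Blimp1 and 3-factor lines, and of Gpr160 in the Tfap2c line.

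Several adhesion receptors were lower on day 1. Adgrg3, of the same subfamily as Adgrg6, fell from 5.50 and 6.17 to 4.65 and 4.01 in the 3-factor line (−1.51 ± 0.28, adjusted p = 0.000916) and by 1.06 ± 0.28 in the Blimp1 line (adjusted p = 0.00854). Its arrays did not overlap between stages in either line. In the Prdm14 line the change of Adgrg3 was −0.99 ± 0.28 (adjusted p = 0.0157), just below the size for a call. Its mean went from 5.625 to 5.03 in the Tfap2c line and from 5.54 to 5.255 in the parental line, with no call. Adgrl1 fell by 1.01 ± 0.18 in the Prdm14 line (adjusted p = 0.00066), with changes of −0.72 to −0.93 in the other lines that passed the adjusted p only. Adgrb2, a brain adhesion receptor, fell by 1.09 ± 0.35 in the Tfap2c line (adjusted p = 0.0291). Gpr155, a lysosomal cholesterol sensor, fell by 1.56 ± 0.56 in the 3-factor line (adjusted p = 0.0421), a call lost with no filter (adjusted p = 0.0617). Calls of Adgrb2, Gpr155, Adgrl1 and, in the Blimp1 line, Adgrg3 were each lost when 1 of at least 2 of their arrays was left out.

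Gpr19 showed the most uniform stage difference. Its day 1 less EpiLC change was 0.75 in the parental line (adjusted p = 1.63e-05), and 0.70, 0.87, 0.63 and 0.82 with 3 factors, Blimp1, Prdm14 and Tfap2c, with an SE of 0.08 in each. Every day 1 array (8.49 to 8.82) lay above every EpiLC array (7.79 to 8.03), although no change reached the size for a call. Its second probe set gave −0.30 in the parental line, so the difference is seen by the brighter one only.

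The stage change of each line was set against that of the parental line by an interaction term, and these 4 comparisons share the parental arrays. Of 52 receptors 7 differed in the 3-factor line, 2 in the Blimp1 line and 8 in the Prdm14 line, where 6.93%, 2.42% and 4.53% of all genes did. Without Gprc5a and Adgrg6 these were 6, 1 and 7 of 50. In the Tfap2c line limma called 0, with 2 receptors at an unadjusted p under 0.05, and 0% of all genes. Gprc5b differed by −3.65 ± 0.22 in the 3-factor line (adjusted p = 3.4e-07) and −3.21 ± 0.22 in the Prdm14 line (adjusted p = 1.93e-06), calls kept in every alternative run.

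The partners of these receptors were read from lists of G protein subunits, adenylyl cyclases, kinases and arrestins, RGS proteins and adhesion ligands. These lists, and the 2 that follow, were chosen with earlier results of these data known, so their counts are a description. Of their 87 tested genes 14, 4 and 12 were called on day 1 in the 3-factor, Blimp1 and Prdm14 lines, against 6.6%, 2.59% and 5.36% of all genes. Of all genes 3.85% and 3.19% were lower in the 3-factor and Prdm14 lines. Among 5 tested kinases and arrestins 1 was lower on day 1 in each of the 3-factor and Prdm14 lines, Arrb1 (beta-arrestin 1), at −1.49 ± 0.09 in both (adjusted p = 1.35e-07 and 2.07e-07). In the parental line Arrb1 had risen by 1.39 ± 0.09 between stages, as had Grk3, a receptor kinase, by 1.36 ± 0.25. Of 14 RGS proteins, which speed the switching off of G proteins, 2 were lower and 0 higher in each of these lines. They were Rgs2, at −2.43 and −2.28, and Rgs10, at −1.56 and −1.15. The list medians were −0.11 and −0.05, near those of all genes. In the Blimp1 line Rgs7 was 1.06 ± 0.33 lower (adjusted p = 0.049), from near the filter level.

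Of 13 alpha subunits 1 was called in each of 3 lines, where 6.6%, 2.59% and 5.36% of all genes were called (3-factor, Blimp1 and Prdm14 lines). Gna14 was 1.28 ± 0.20 higher in both the 3-factor and Blimp1 lines, and Gnai2, an inhibitory subunit, was 1.15 ± 0.08 lower in the Prdm14 line. Of 15 beta and gamma subunits, Gng12 was 1.56 ± 0.10 higher and Gng3 1.08 ± 0.12 lower in the 3-factor line. Of 8 adenylyl cyclases limma called 0 in each line, with 1, 2, 1 and 0 at an unadjusted p under 0.05 in the 3-factor, Blimp1, Prdm14 and Tfap2c lines. Among 16 binding partners of adhesion receptors 3 were lower and 0 higher in both the 3-factor and Prdm14 lines: Thy1 (−3.04 and −2.63), which is also in the fibroblast list above, Tenm4, a teneurin bound by latrophilins (−2.67 and −1.51), and Col4a1, a collagen IV chain of the kind that binds Adgrg6 (−1.54 and −1.73). The list medians were −0.16 and −0.26, and 3.85% and 3.19% of all genes were lower in these 2 lines. Flrt3, a latrophilin ligand, was 1.43 ± 0.16 higher in the Blimp1 line.

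Retinoic acid and hedgehog genes were read because the Gprc5 family is known from the first pathway and Gpr161 from the second. Of 9 retinoic acid genes 3 were lower and 0 higher in the 3-factor and in the Prdm14 line, with Crabp2, a retinoic acid carrier, at −3.54 ± 0.14 and −1.91 ± 0.14, Rarb, a receptor, at −1.43 and −2.08, and Meis2 at −1.01 and −1.08. The list medians were −0.34 and −0.10, and 3.85% and 3.19% of all genes were lower in these lines. Cyp26a1, which breaks down retinoic acid, was 1.09 ± 0.25 higher in the Blimp1 line. Of 7 hedgehog genes 2 were lower in each of the 3-factor and Prdm14 lines: Sufu in both (−1.26 and −1.22), Gli2 in the 3-factor line (−1.14) and Smo in the Prdm14 line (−1.03), with medians of −0.34 and −0.15. In the Tfap2c line limma called 0 of the 87 tested genes of these lists, with 3 at an unadjusted p under 0.05.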

How the data were processed

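RNA was measured on 20 Affymetrix arrays with 45101 probe sets. Per the labels' protocols, column-purified RNA was labelled with biotin in 1 cycle. The values deposited by the authors are on a log2 scale (0 to 13.83); the base was inferred here, with normalization and software not given in the sources used here. Values were used as deposited.

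Of the probe sets 34945 had 1 gene in the platform annotation, 932 several and 9160 none, and 64 controls were left out. Of 132 receptor probe sets 1 per gene was used, and 1 shared with another gene was left out. All 82 receptors matched the RefSeq table (GRCm38.p6) by identifier. Genes were tested when their highest group mean reached the 40th percentile, 3.95.

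The 10 group means of 13986 genes were estimated from all arrays in 1 fit by limma 3.58.1 in R 4.3.3 (10 residual and 1.8 prior degrees of freedom); two-sided p values were adjusted (Benjamini-Hochberg) across the genes of each contrast. Arrays of 1 group are biological duplicates per the series description. Named receptors are those called in any of the 20 comparisons, the 10 brightest, Gprc5a and Adgrg6; others, such as Gpr153, Gpr26 and the untested ones, were named after their values were seen. For Adgra2, Adgrv1 and Gpr50, which reached the filter level only in groups compared, p values come from the fit with no filter, read so after seeing the data. From the partner lists the 3 largest calls per list are named. The members and lists were chosen with earlier results of these data known. The model was tested on simulated data. Alternatives were 2 scalings, 2 filters, 2 rules for probe sets, treat, fits on the compared arrays, a replicate block, leaving out each array, and, chosen after seeing the data, a fit of every probe set. Python 3.11.15 and pandas 2.3.3 were used for tables.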

Additional observations from a re-analysis of the deposited data

Results flagged for a closer look

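The change from EpiLC to day 1 differed between a transgenic line and the parental line, by an interaction term in limma, for 17 receptor values. Each value is the stage change of the line less that of the parental line, on a log2 scale, and all share the parental arrays.

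In the 3-factor line Adgrg6 (an adhesion receptor) differed by 4.08, Gpr50 by 2.24, Gpr1 by 1.46 and Gpr160 by 1.22, while Gprc5b differed by −3.65, Gpr161 by −1.53 and Gprc5c by −1.40. In the Blimp1 line Gprc5a differed by 4.29 and Gpr162 by 1.57. In the Prdm14 line Gprc5a differed by 3.81, Gpr50 by 2.21, Gpr1 by 1.57 and Gpr160 by 1.36, while Gprc5b differed by −3.21, Adgra2 by −2.43, Gprc5c by −1.45 and Gpr161 by −1.16. The calls of Gprc5b in both lines and of Adgrg6 in the 3-factor line were made in every alternative run. That of Gpr50 in the 3-factor line was made in the 15 runs that held the gene. That of Gpr162 was lost in 14 of 17, leaving out any of its 8 arrays included (adjusted p up to 0.644), those of Gpr1 in 11 and 12 of 16 (3-factor and Prdm14 lines) and those of Gprc5c in 10 of 16 in each line. Gpr161 in the 3-factor line lost its call in 1 of 17, the mean of its probe sets, which gave −0.315 (adjusted p = 0.857), and in the Prdm14 line in 7 of 17. Adgra2 lost its call in 7 of 16, Gpr160 in 5 and 6 of 17, Gpr50 in the Prdm14 line in 1 of 15 and Gprc5a in 1 of 17 in each line. The values of Gprc5a and Adgrg6 are a description, since these genes were singled out when the receptors were chosen. Gpr160 fell between stages in the parental line and not in the Prdm14 or 3-factor lines, and its values rest on that difference. With groups of 2 arrays, no test for an outlying array applies.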

How the results depend on the processing

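Of 79 called receptor values, 32 kept their call in every alternative run that held the gene, 47 lost it in at least 1 and 0 reversed. The 32 include values of Gprc5a and Adgrg6, which are a description. They also include values of Adgra2, Adgrv1 and Gpr50, which reached the filter level only in groups compared. The limits are 2 arrays per group, 1 clone per line and low signal, since many receptors lie near the filter level. Leaving out each array in turn assumes that the lone array varies like the other groups. It gave 4 to 8 called receptors on day 1 in the 3-factor line (5 with all arrays), 1 to 3 in the Blimp1 line (2), 0 in the Tfap2c line (0) and 5 to 7 in the Prdm14 line (9); 4 to 8 between stages in the parental line (6), 7 to 9 in the 3-factor line (8), 4 to 6 in the Blimp1 line (6), 2 to 4 in the Tfap2c line (5) and 5 to 7 in the Prdm14 line (7); 0 to 1 in every EpiLC comparison (0), the 1 being Gpr153 without parental replicate 1; 4 to 9, 1 to 2, 3 to 7 and 0 for the interaction in the 3-factor, Blimp1, Prdm14 and Tfap2c lines (7, 2, 8 and 0); and 5 to 7, 1 to 2 and 5 to 7 for 3-factor against Blimp1, 3-factor against Prdm14 and Prdm14 against Blimp1 (6, 2 and 6).

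A filter at the 60th percentile left 3 called receptors on day 1 in the 3-factor line and 5 in the Prdm14 line, 3, 4, 4 and 2 between stages in the parental, 3-factor, Prdm14 and Tfap2c lines, 4 for the Prdm14 interaction and 1 for 3-factor against Prdm14; fewer genes pass this filter. Treat against 0.5 left 1 on day 1 in the Blimp1 line and 3 in the Prdm14 line, 3 and 1 between stages in the Prdm14 and Tfap2c lines, 4, 0 and 2 for the 3-factor, Blimp1 and Prdm14 interactions, 1 for 3-factor against Prdm14 and 2 for Prdm14 against Blimp1. Only the arrays compared left 1 on day 1 in the Blimp1 line, 2 between stages in the Tfap2c line, 1 and 4 for the Blimp1 and Prdm14 interactions and 0 for 3-factor against Prdm14. The mean of all probe sets left 4, 1 and 5 for the 3-factor, Blimp1 and Prdm14 interactions. Both scalings, no filter and, added after seeing the data, a fit of every probe set each left 1 for the Blimp1 interaction; the cause was not tested. The replicate block gave the same number of called receptors in each comparison, such as 5 on day 1 in the 3-factor line and 9 in the Prdm14 line. Little pairing by replicate number was seen. Over 45 pairs of groups the correlation of replicate differences lay between −0.063 and 0.2, with a median of 0.026, and 6 were over 0.1.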
